A study of Homo sapiens with 18 samples.

Results

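The response of drug-sensitive SKBR3 cells to a low dose of lapatinib was taken as the comparison of 3 arrays of parental SKBR3 cells with 0.1 µM lapatinib and 3 arrays of parental SKBR3 cells under basal conditions. These 6 arrays were chosen by their labels, out of 18 in the series. SKBR3 cells are an established line from a human breast cancer that carries an ERBB2 amplification, and lapatinib is a small molecule that inhibits the kinases of EGFR and ERBB2. The other arrays were from parental cells with 1 µM lapatinib and from a resistant SKBR3 line at basal, 0.1 µM and 1 µM, with 3 arrays a group. The 1 µM arrays of the parental line and the basal and 0.1 µM arrays of the resistant line are used below where a result is set against them, and all 18 arrays enter the estimate of the spread. The labels give neither the length of treatment, nor whether basal cells received the solvent, nor how the resistant line was made. Nor do they tell if the 3 arrays of a group came from separate cultures, and all p-values therefore rest on a spread between arrays that may be technical only.

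ERBB2 and its partner ERBB3 signal through the PI3K-AKT and the RAS-MAPK pathways. AKT keeps FOXO transcription factors out of the nucleus, and MAPK activity drives the immediate early genes, a set of transcription factors and feedback phosphatases that respond within minutes. Both pathways feed into the D cyclins and the E2F factors, which switch on DNA replication genes before S phase, and a later wave of mitotic genes is transcribed in G2. Cells with amplified ERBB2 depend on this signalling for growth, so the comparison asks which of these programmes moved at the lower of the doses used.

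Signal was read from biotin-labelled cRNA on Illumina bead arrays and is given as log2 normalized intensity, in which a difference of 1 is a 2-fold change. The mean signal per array before normalization was 532.6 ± 21.26 in the 0.1 µM arrays and 646.1 ± 25.88 in the basal arrays (SD, n = 3 each), a difference of -17.6% (two-sided exact permutation test p = 0.1, the smallest that 3 against 3 allows). The part of this difference in brightness in the results was not tested beyond the scaling alternatives given with them. Background levels were 79.69 to 86.66 and 84.54 to 93.57, and 36.6% to 37.65% and 37.05% to 39.53% of probes were above background in the 0.1 µM and the basal arrays. Across the 12547 genes tested, which are not independent replicates, arrays correlated at r = 0.993 to 0.995 within 0.1 µM, 0.994 to 0.996 within basal, and 0.986 to 0.989 between them. The leading principal component of the 6 arrays held 50.8% of the variance and separated 0.1 µM from basal, and replicate 3 of the 0.1 µM group stood apart on the next, which held 16.3%. Of 10 genes known to be high in SKBR3, 9 were above background on all 6 arrays, with ERBB2 at percentile 99.9 of the genes. GATA3 was above background on 1 of 3 arrays at 0.1 µM and on 0 of 3 at basal. Of 5 genes expected to be low or absent in SKBR3, 0 were above background on all 6 arrays. CDH1, PGR and KRT14 were not well above background on any of the 6. ESR1 was above background on 0 of 3 arrays at 0.1 µM and on 2 of 3 at basal, and KRT5 on 1 of 3 and 0 of 3. Of 7 fibroblast and 6 leukocyte markers on the array, 0 and 2 were above background on all 6 arrays. The 2 were CD68 and LYZ, and the collagens COL1A2 and COL3A1 and the leukocyte antigens PTPRC and CD3E were not well above background on any. Of 6 endothelial markers 4 were above background on all 6 arrays, and ESAM (0.58) and VWF (0.37) were called higher at 0.1 µM while PECAM1 (-0.31) and CDH5 (-0.10) did not pass. The call of VWF was lost under scaling by the median of all probes (adjusted p = 0.0588) and in 5 of the 6 fits without 1 of the compared arrays. The summed background-corrected intensity of the 6 was 459.1 to 515.9 in the 0.1 µM arrays and 377.5 to 441.7 in the basal arrays, and its part in any result was not tested.

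At 0.1 µM, 1414 of 12547 genes (11.3%) passed the threshold, an adjusted p of 0.05 from limma with Benjamini-Hochberg adjustment over all genes, with 744 higher (5.93%) and 670 lower (5.34%). The changes were mostly small. The median size of a called change was 0.477 on the log2 scale, or 1.39-fold, and 1011 of the called genes (71.5%) changed by less than 1.5-fold. At least 2-fold changes were called in 29 genes higher (0.231%) and 14 genes lower (0.112%). The arrays of the 2 groups did not overlap for 30.5% of the genes tested, called or not. Scaling each array by the median of all probes, which leaves the difference in brightness in, moved the median change of all genes by -0.17 and gave 241 higher and 3405 lower. Scaling by the median of the probes above background gave 702 and 1576. Values below are therefore relative to the middle of the genes tested, and a list is said to turn where its median changes sign under either scaling. Each count of list members called below stands against the 5.93% of all genes that rose and the 5.34% that fell.

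**Figure D1:**
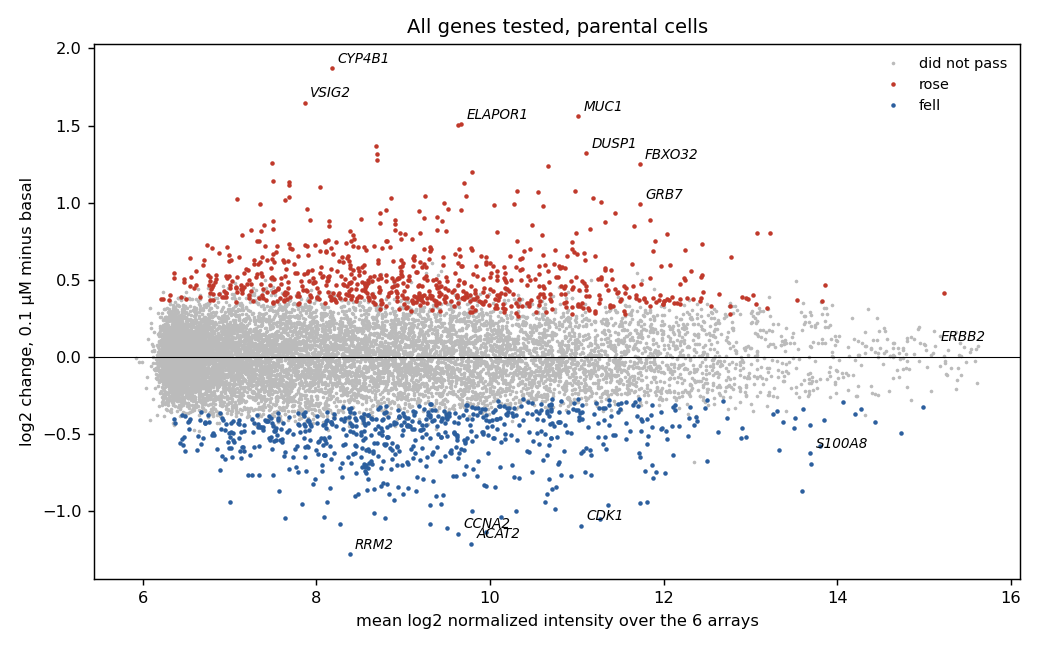
Log2 change at 0.1 µM minus basal (vertical axis) against the mean log2 normalized intensity over the 6 arrays (horizontal axis), 1 point a gene, for 12547 genes. Red points are the 744 genes that rose, blue points the 670 that fell and grey points those that did not pass, and the changes reach from -1.28 for RRM2 to 1.87 for CYP4B1.

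CYP4B1, a cytochrome P450, rose most. It read 9.09, 8.96 and 9.30 in the 0.1 µM arrays, against 6.99, 7.51 and 7.23 in the basal arrays, a change of 1.87 ± 0.14 (SE), or 3.66-fold (limma adjusted p = 1.25e-09), and a second probe gave 1.70. The membrane protein VSIG2 read 8.42, 8.60 and 9.04 at 0.1 µM, against 6.87, 7.40 and 6.86 at basal (1.65 ± 0.16, 3.13-fold). All 3 treated arrays of both genes lay more than 1 log2 unit above every basal array. MUC1, a mucin of the apical surface of luminal epithelium, read 11.71, 11.67 and 12.02 at 0.1 µM, against 10.30, 10.16 and 10.27 at basal (1.56 ± 0.14, 2.95-fold), and its other probes gave 0.66 and 1.67. ELAPOR1, a membrane protein of endosomes and lysosomes, read 10.38, 10.32 and 10.57, against 8.94, 8.91 and 8.89 (1.51 ± 0.11). NUPR1, a small chromatin protein induced by stress, rose by 1.5 ± 0.18, with replicate 3 the highest of the 0.1 µM arrays at 10.63. The other rises among the top 12 were in SPINK8 (1.37), the phosphatase DUSP1 (1.32), the arrestin-like protein TXNIP (1.32), THRSP, a regulator of lipogenesis (1.25), the ubiquitin ligase subunit FBXO32 (1.25), the secretoglobin SCGB1D2 (1.24) and ARRB1, a beta-arrestin (1.20). For ARRB1 the other 3 probes gave -0.22, 0.09 and -0.26, and with the mean of its 4 probes the call was lost (0.20, adjusted p = 0.153).

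RRM2, the regulated subunit of ribonucleotide reductase, fell most. It read 7.61, 7.95 and 7.67 in the 0.1 µM arrays, against 9.01, 9.0 and 9.06 in the basal arrays (-1.28 ± 0.11, a 2.43-fold fall, adjusted p = 1.22e-08). ACAT2, a cytosolic thiolase that makes the precursor of the mevalonate pathway, read 9.29, 9.17 and 9.06 at 0.1 µM, against 10.37, 10.46 and 10.33 at basal (-1.21 ± 0.11), while its other, dim probe gave -0.06. CCNA2, the cyclin of S phase and G2, read 9.17, 9.14 and 8.88, against 10.26, 10.32 and 10.04 (-1.15 ± 0.11). In each of these all treated arrays lay below all basal arrays. UHRF1, which maintains DNA methylation at replication forks, fell by 1.14 on the log2 scale, and CDK1, the kinase that drives mitosis, by 1.09. The kinesin KIF14 (-1.08), the condensin subunit NCAPG (-1.08), the nuclear import factor KPNA2 (-1.05), the spindle protein CKAP2L (-1.05), the zinc finger protein ZCCHC12 (-1.04) and the survivin gene BIRC5 (-1.04) completed the 12, with TUBA3D (-1.11). TUBA3D has near-identical tubulin copies and a second, dim probe at 0.06, so its value is uncertain.

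**Figure D2:**
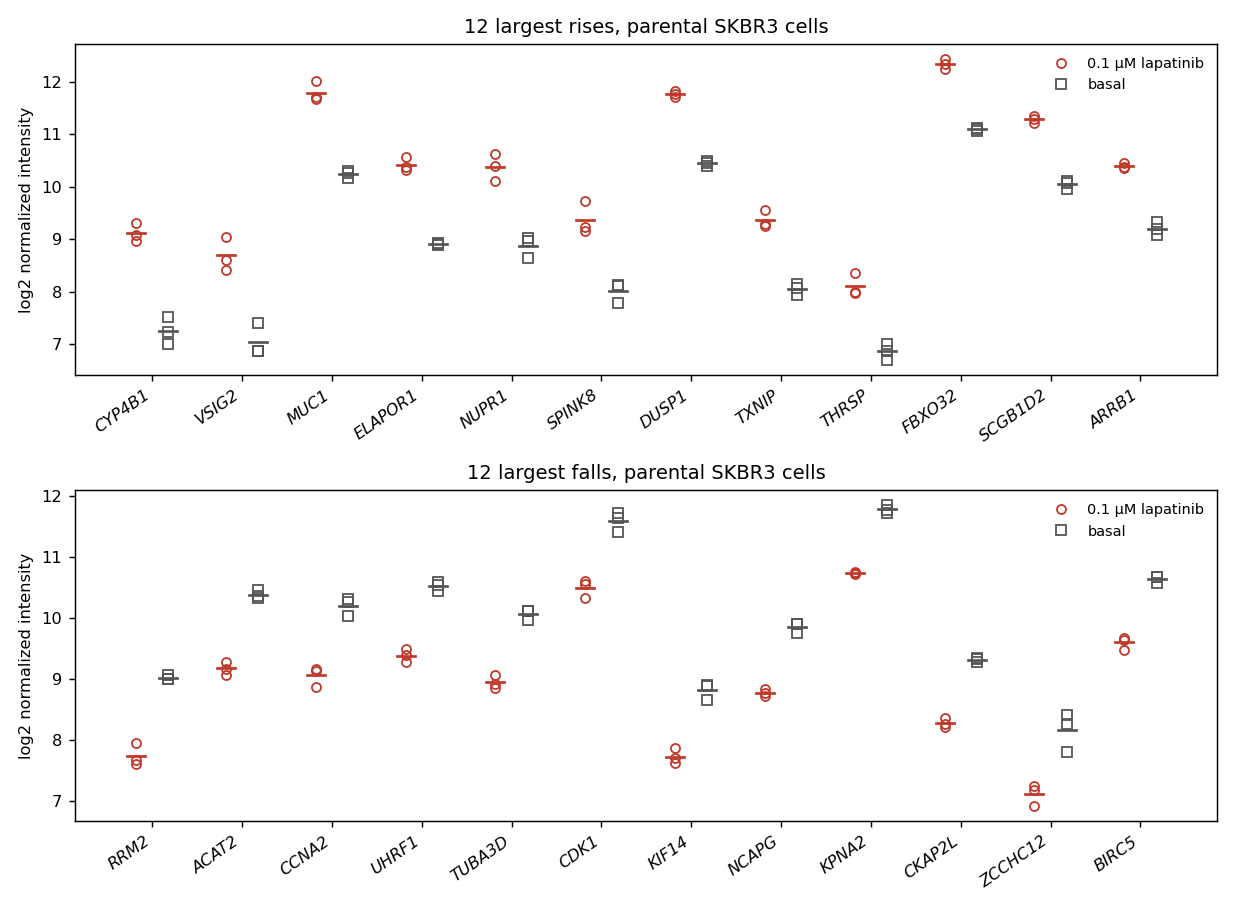
Log2 normalized intensity (vertical axis) of the 12 largest rises (upper panel) and the 12 largest falls (lower panel), with 3 red circles for the 0.1 µM arrays and 3 grey squares for the basal arrays of each gene, and a bar at each mean. In all 24 genes the 3 treated arrays lie beyond the 3 basal arrays, as the rule that chose them required.

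Genes of mitosis fell together. Of 44 members tested, 39 fell and 0 rose, against 5.34% of all genes that fell, and the median change was -0.75, against 0.000338 for all genes. Besides CCNA2, CDK1, NCAPG and BIRC5 these included the mitotic kinases AURKB (-1.01), AURKA (-0.94) and PLK1 (-0.54), the kinesins KIF20A (-0.96) and KIF2C (-0.89), the kinetochore protein NDC80 (-0.85), the cyclins CCNB2 (-0.84) and CCNB1 (-0.67), and FOXM1, a transcription factor of G2 genes (-0.74). CDK1 read 10.56, 10.61 and 10.33 at 0.1 µM, against 11.72, 11.65 and 11.41 at basal, and its second probe gave -1.03. The 5 that did not pass were MKI67, BUB3, ESPL1, NCAPH and CENPM, with changes of -0.38 to -0.04. MKI67, the Ki-67 antigen, was dim at 6.69, 6.63 and 6.77 in the 0.1 µM arrays and 7.03, 7.38 and 6.83 in the basal arrays (adjusted p = 0.063). It passed without basal replicate 3 (-0.50, adjusted p = 0.026) and under scaling by the median of all probes (-0.51). The mitosis list kept its direction under both median scalings, with 43 and 40 members lower.

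The promoters of mitotic genes are known for the CHR element, a site of the DREAM and MuvB complexes, and for CCAAT boxes bound by NF-Y. The 250 bases before an annotated start are shown for 3 of the 12 largest falls, from the RefSeq promoter table of GRCh38.p14. CHR (TTTGAA) and CCAAT matches on either strand are in capitals. For genes with several listed starts, here and below, a window with the most matches was chosen, CCAAT not counted. CDK1 and TXNIP have 2 listed starts and UHRF1 has 3. The windows shown are therefore examples, and shares over a list are given after them. The windows here are chr10:60778228-60778477 on the plus strand for CDK1, chr2:112764610-112764859 on the minus strand for CKAP2L and chr4:17810729-17810978 on the plus strand for NCAPG.
CDK1: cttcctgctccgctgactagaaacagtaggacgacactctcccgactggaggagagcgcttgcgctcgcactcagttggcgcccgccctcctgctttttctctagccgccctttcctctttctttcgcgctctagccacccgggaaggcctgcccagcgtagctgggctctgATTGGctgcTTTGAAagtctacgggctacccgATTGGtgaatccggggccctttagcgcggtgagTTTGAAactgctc
CKAP2L: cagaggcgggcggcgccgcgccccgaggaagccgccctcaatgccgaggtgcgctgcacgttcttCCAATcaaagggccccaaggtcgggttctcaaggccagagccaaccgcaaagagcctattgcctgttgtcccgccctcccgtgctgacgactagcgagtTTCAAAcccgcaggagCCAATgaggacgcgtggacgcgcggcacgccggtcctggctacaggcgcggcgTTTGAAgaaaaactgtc
NCAPG: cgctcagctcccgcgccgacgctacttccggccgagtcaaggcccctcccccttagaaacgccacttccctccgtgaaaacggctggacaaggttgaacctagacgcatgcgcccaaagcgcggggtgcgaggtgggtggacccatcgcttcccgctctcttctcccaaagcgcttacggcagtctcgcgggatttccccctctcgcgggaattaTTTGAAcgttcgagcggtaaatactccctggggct
CDK1 had CHR matches starting at -69 and -13, CKAP2L at -86 and -17, and NCAPG at -35, counted from the base before the start as -1. CCAAT matches lay at -78 and -46 in CDK1 and at -185 and -70 in CKAP2L, and these letters were not in the NCAPG window. Of the 36 listed mitosis genes with an entry in the table, whether or not they fell, 18 (50%) held TTTGAA in such a window, against 16.1% of 27305 genes, and 29 (80.6%) held CCAAT, against 37%. These motifs can share no more than an end base, and a match describes the sequence and shows no binding.

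In the G1/S and DNA replication list, 26 of 41 tested genes fell and 0 rose, with a median of -0.44, and 37 and 34 were lower under the 2 median scalings. RRM2 and UHRF1 were followed by TYMS, which makes thymidylate (-0.89), the polymerase epsilon subunit POLE2 (-0.85), the GINS subunit GINS2 (-0.83), the replicative helicase cofactor CDC45 (-0.79) and the transcription factor E2F2 (-0.76). TYMS read 10.28, 10.27 and 10.09 at 0.1 µM, against 11.02, 11.08 and 11.20 at basal. Of the MCM helicase subunits, MCM7 (-0.52), MCM6 (-0.48) and MCM4 (-0.44) fell, while MCM2 (-0.32), MCM5 (-0.30) and MCM3 (-0.26) did not pass. CCNE1, the cyclin of G1/S entry, was at -0.32 and did not pass, and E2F1 was not well above background on any array at 0.1 µM. Under scaling by the median of the kept probes 1 member was called higher.

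UHRF1 is shown as a G1/S gene with an E2F match, on chr19:4909251-4909500, plus strand, with TTCCCGCC and CCAAT in capitals.
UHRF1: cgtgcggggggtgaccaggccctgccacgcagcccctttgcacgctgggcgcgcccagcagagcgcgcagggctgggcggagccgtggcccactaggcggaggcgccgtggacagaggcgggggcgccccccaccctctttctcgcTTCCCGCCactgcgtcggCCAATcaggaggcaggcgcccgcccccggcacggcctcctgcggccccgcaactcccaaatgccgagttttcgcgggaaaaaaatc
The E2F match started at -104 and the CCAAT match at -86. Of 38 listed G1/S genes with an entry, 9 (23.7%) held TTCCCGCC, against 3.31% of all genes, and 7 (18.4%) held the form TTTGGCGC, against 0.681%.

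Upstream of these genes, the D cyclins fell and the CDK inhibitors did not pass. CCND1, the D cyclin that MAPK signalling induces, read 12.51, 12.57 and 12.52 in the 0.1 µM arrays, against 12.97, 12.95 and 12.88 in the basal arrays (-0.40 ± 0.09, adjusted p = 0.0045). The groups were apart, but the fall was 1.32-fold. CCND3 fell by 0.52 on the log2 scale, and the call was lost without replicate 3 of the 0.1 µM group (-0.46, adjusted p = 0.0531). CDKN1B, which encodes the inhibitor p27, was at 0.31 ± 0.14 (adjusted p = 0.18), and CDKN1A, which encodes p21, at 0.01. The pocket protein gene RBL2 was called higher at 0.36, but lost the call under both median scalings (0.06 and 0.22) and in 5 of the 6 fits without 1 of the compared arrays. Of the 12 genes of this list 1 rose and 2 fell. MYC, bright at 12.80, 12.79 and 12.61 against 12.49, 12.57 and 12.47 at basal, did not pass (0.23 ± 0.10, adjusted p = 0.17).

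FOXO factors are known to switch on genes of growth arrest, catabolism and receptor expression. Of 30 of their targets tested, 16 rose and 1 fell, against 5.93% and 5.34% of all genes, with a median of 0.37. Under the median scalings 8 and 12 rose and 3 and 2 fell, and the median stayed above 0 (0.115 and 0.278). FBXO32, also called atrogin-1, read 12.35, 12.25 and 12.44 at 0.1 µM, against 11.12, 11.07 and 11.11 at basal, with 1.05 and -0.02 at its other probes. TXNIP, which binds thioredoxin and restrains glucose uptake, read 9.28, 9.24 and 9.56, against 7.93, 8.06 and 8.14 (1.32 ± 0.12, 2.49-fold). BCL6, a transcriptional repressor, read 9.23, 9.27 and 9.65, against 8.32, 8.44 and 8.29 (1.03 ± 0.11). HBP1, a repressor of cell cycle genes (0.82), PIK3IP1, an inhibitor of PI3K (0.82), the cyclin CCNG2 (0.80), YPEL3 (0.72), PINK1 (0.57) and the autophagy kinase ULK1 (0.47) also rose, the last not under either median scaling (adjusted p = 0.44 and 0.0525). PDK4, which shuts pyruvate out of the mitochondrion, was above background on all 3 arrays at 0.1 µM and on 1 of 3 at basal, so its fitted 0.71 is not exact. SOD2, the mitochondrial superoxide dismutase and a known FOXO target, fell (-0.42). The pro-apoptotic BCL2L11 (0.12) and the insulin receptor INSR (0.13) did not pass, and both were near background.

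TXNIP is shown as the FOXO target with the largest rise, on chr1:145996580-145996829, minus strand, with the core GTAAACA in capitals.
TXNIP: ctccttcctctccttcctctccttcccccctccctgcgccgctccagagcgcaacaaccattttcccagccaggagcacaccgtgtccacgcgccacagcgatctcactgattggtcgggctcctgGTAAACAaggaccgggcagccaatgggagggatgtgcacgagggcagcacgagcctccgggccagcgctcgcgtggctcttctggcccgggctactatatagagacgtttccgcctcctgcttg
The match started at -124. Of 24 listed FOXO targets with an entry, 4 (16.7%) held GTAAACA within 250 bases of a start, against 3.66% of all genes.

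Immediate early genes rose in 10 of 23 members, and 0 fell. FOS, a subunit of the AP-1 factor, read 7.77, 7.68 and 8.10 in the 0.1 µM arrays, against 6.71, 6.85 and 7.02 in the basal arrays (0.99 ± 0.14, 1.98-fold, adjusted p = 2.22e-05). EGR1, a zinc finger factor, read 10.49, 10.68 and 10.43, against 9.61, 9.58 and 9.46 (0.99 ± 0.14). Every treated array of both genes lay above every basal array. The mRNA decay factor ZFP36 rose by 0.62, KLF4 by 0.59, NR4A2 by 0.56, and CCN2, a target of YAP and SRF, by 0.54. FOSB (-0.19), JUNB (-0.04), IER2 (-0.28) and EGR3 (-0.13) did not pass, so the direction was not shared by the whole list. The median of 0.29 turned to -0.0173 under scaling by the median of all probes, with 2 members higher and 2 lower, and was 0.146 with 5 higher and 0 lower under scaling by the kept probes. FOS and EGR1 stayed called under both, while ZFP36 (adjusted p = 0.0884) and KLF4 (adjusted p = 0.159) lost their calls under the first, and KLF4 also when its probes were averaged (adjusted p = 0.0902).

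DUSP1, the phosphatase that switches off MAP kinases and is itself induced by them, read 11.78, 11.82 and 11.71 at 0.1 µM, against 10.50, 10.45 and 10.40 at basal (1.32 ± 0.11, 2.50-fold, adjusted p = 7.19e-09). Of 14 MAPK feedback and ETS genes 2 rose, DUSP1 and the early response gene IER3 (0.38), 3 fell and 9 did not pass. Among the 3 that fell, SPRY4 read 8.40, 8.11 and 8.20, against 9.12, 9.16 and 8.99 (-0.86 ± 0.13), but its 2 dimmer probes gave 0.33 and -0.22, and with their mean the call was lost (-0.25, adjusted p = 0.0851). ERRFI1, which binds and inhibits EGFR and ERBB2, read 10.05, 9.85 and 9.86, against 10.56, 10.30 and 10.39 (-0.50 ± 0.10). DUSP4 fell by 0.42, and the call was lost without replicate 2 or 3 of either group (adjusted p = 0.0613 to 0.2). DUSP6 was listed but not tested, since it was not above background on enough arrays. Under each median scaling 1 member of the MAPK feedback and ETS list rose, and 8 and 5 fell. The list's median of -0.155 moved to -0.366 and -0.203.

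Promoters of EGR1 (chr5:138465229-138465478, plus strand) and DUSP1 (chr5:172771196-172771445, minus strand) are shown since these genes rose at 0.1 µM and were lower again at 1 µM. Capitals mark CArG boxes, the sites of serum response factor, in EGR1 and the cyclic AMP response element TGACGTCA in DUSP1.
EGR1: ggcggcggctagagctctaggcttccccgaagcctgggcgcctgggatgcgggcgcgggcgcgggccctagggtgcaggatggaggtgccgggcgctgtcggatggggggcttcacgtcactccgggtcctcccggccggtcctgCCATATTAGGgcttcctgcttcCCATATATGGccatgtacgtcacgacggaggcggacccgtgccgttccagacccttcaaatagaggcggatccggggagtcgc
DUSP1: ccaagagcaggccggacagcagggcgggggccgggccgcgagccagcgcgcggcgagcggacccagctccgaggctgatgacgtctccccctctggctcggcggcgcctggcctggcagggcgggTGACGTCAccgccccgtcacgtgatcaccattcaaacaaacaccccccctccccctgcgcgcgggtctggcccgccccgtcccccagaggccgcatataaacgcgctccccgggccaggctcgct
EGR1 had CArG boxes starting at -105 and -83, and DUSP1 had its element at -125. A CArG box was found in 3 of 20 listed immediate early genes (15%), against 1.44% of all genes. TGACGTCA was found in 1 of these 20, against 2.03% of all genes. DUSP1 is in the MAPK feedback list and is not among these 20, and the share over its own list was not counted.

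**Figure D3:**
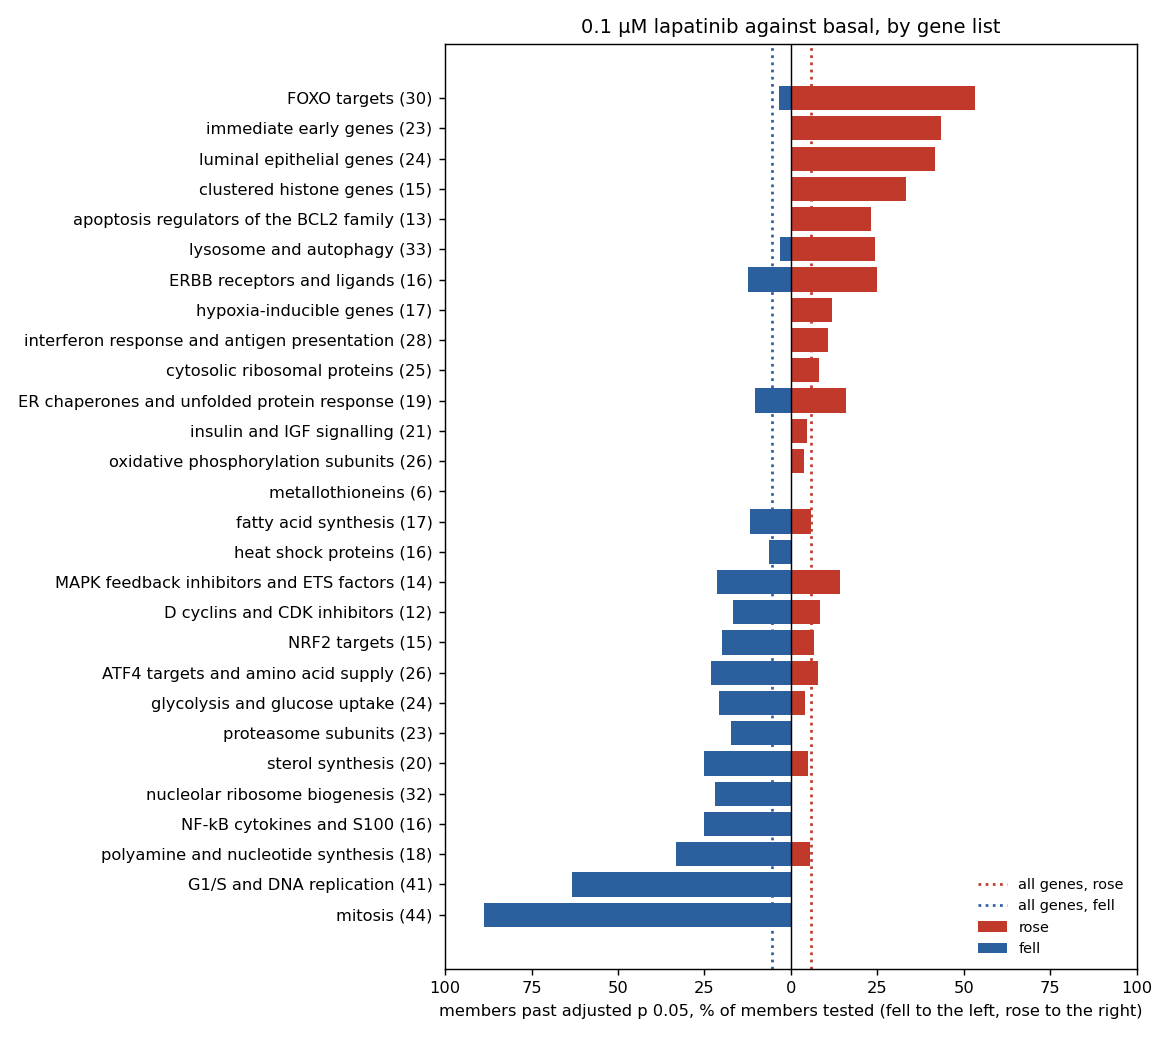
Share of members past adjusted p 0.05 at 0.1 µM against basal for 28 gene lists (members tested in brackets), with rises to the right in red and falls to the left in blue, in percent of members tested. Dotted lines mark the shares over all genes, 5.93% higher and 5.34% lower, the longest blue bar is that of mitosis (39 of 44 fell) and the longest red bar that of the FOXO targets (16 of 30 rose).

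The receptors targeted by the drug did not pass. ERBB2 read 15.26, 15.17 and 15.03 in the 0.1 µM arrays, against 15.29, 15.07 and 14.90 in the basal arrays (0.07 ± 0.11, adjusted p = 0.758), and the groups overlapped. EGFR was at 0.18 ± 0.10 (adjusted p = 0.304), and a second probe gave 0.29. Its treated arrays lay above its basal arrays, while 30.5% of all genes had no overlap in either direction. ERBB3, the kinase-poor partner of ERBB2, read 10.95, 10.95 and 10.91, against 10.40, 10.31 and 10.31 (0.59 ± 0.10, adjusted p = 8.28e-05). That rise rests on the brightest probe, since the others gave -0.04 and 0.05, and the call was lost with the mean of the probes (0.20, adjusted p = 0.171) and under scaling by the median of all probes (0.28, adjusted p = 0.06). GRB7, an adaptor that binds ERBB2 and lies in its amplicon, read 12.15, 12.27 and 12.24, against 11.07, 11.28 and 11.35 (0.99 ± 0.14, 1.99-fold). Its other probes gave 0.76 and, for the dimmest, -0.02. LRIG1, which promotes receptor degradation, was called at 0.46, but not under either median scaling (0.17 and 0.33) nor without basal replicate 3 (0.37). The ligands HBEGF (-0.41) and BTC (0.37, above background on 1 of 3 basal arrays) went opposite ways. In all, 4 of 16 receptor and ligand genes rose and 2 fell, and the median of 0.0999 turned to -0.00859 under scaling by the median of all probes. Among 21 genes of insulin and IGF signalling 1 rose, TSC2 (0.45), a share near the 5.93% of all genes, and IRS1 (-0.11) and IRS2 (0.09), both dim, did not pass. TSC2 lost its call under scaling by the median of all probes (0.26, adjusted p = 0.141) and without replicate 2 of the 0.1 µM group or replicate 1 or 2 of basal. The median of the list, 0.0679, turned to -0.137 under that scaling, with 0 higher and 4 lower.

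Luminal epithelial genes rose in 10 of 24 members, and 0 fell, with a median of 0.22. MUC1 led them, followed by the prolactin-induced protein PIP (0.64), the zinc glycoprotein AZGP1 (0.53), the ETS factor ELF3 (0.51), the tight junction gene CLDN3 (0.50), XBP1 (0.47) and STAT5A (0.42). ELF3 read 12.02, 12.07 and 12.20 at 0.1 µM, against 11.51, 11.58 and 11.67 at basal. PIP was uneven, with 6.98, 7.33 and 8.0 against 6.93, 6.71 and 6.73, and without replicate 3 of the 0.1 µM group it dropped to 0.36 (adjusted p = 0.168). Its call was also lost without basal replicate 2 (0.60, adjusted p = 0.0674) or basal replicate 3 (0.61, adjusted p = 0.0586). The call of AZGP1 was lost under both median scalings (adjusted p = 0.24 and 0.0506) and without replicate 3 of the 0.1 µM group (adjusted p = 0.123) or basal replicate 2 (adjusted p = 0.15), and those of ELF3 (0.17, adjusted p = 0.295) and XBP1 (0.26, adjusted p = 0.0884) under scaling by the median of all probes. The keratins KRT8 (0.17), KRT18 (0.14) and KRT19 (-0.13) and the factor FOXA1 (0.23) did not pass. Under the median scalings 3 and 6 members were higher and 2 and 1 lower, and the median kept its sign (0.074 and 0.237).

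Genes of lysosomes and autophagy rose in 8 of 33 members and fell in 1, TFE3 (-0.38). GABARAPL1, which marks autophagosomes, read 8.60, 8.85 and 8.58 at 0.1 µM, against 8.23, 8.09 and 7.98 at basal (0.57 ± 0.12), and the proteases CTSF (0.56), CTSA (0.49), TPP1 (0.37) and CTSB (0.32) rose. The median of 0.25 turned to -0.0387 under scaling by the median of all probes, with 1 higher and 6 lower, and 2 were higher and 2 lower under scaling by the kept probes. GABARAPL1 lost its call under the first (adjusted p = 0.0699) and CTSA under both (adjusted p = 0.383 and 0.0503). With the replicate block 7 rose and 0 fell.

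Among biosynthetic genes, of 18 genes of polyamine and nucleotide synthesis 6 fell, 1 rose and 11 did not pass. ODC1, the first enzyme of polyamine synthesis and a MYC target, read 11.31, 11.38 and 11.08 in the 0.1 µM arrays, against 12.19, 12.18 and 12.24 in the basal arrays (-0.95 ± 0.11, a 1.93-fold fall, adjusted p = 1.53e-06). AMD1, which supplies the aminopropyl donor, fell by 0.64. SAT1, which acetylates polyamines for export and breakdown, read 12.40, 12.33 and 12.60, against 11.63, 11.61 and 11.69 (0.80 ± 0.11, adjusted p = 6.18e-06). ODC1 and AMD1 were lower and SAT1 higher in every treated array than in any basal array, while the spermidine and spermine synthases SRM (-0.03) and SMS (0.04) did not pass. CTPS1, which makes CTP, fell by 0.64.

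Of 32 nucleolar genes of ribosome biogenesis 7 fell and 0 rose, with a median of -0.23, led by UTP4 (-0.49), LYAR (-0.48) and BOP1 (-0.45). Of 25 cytosolic ribosomal proteins 2 rose and 0 fell, a share near that of all genes, and their median of 0.0768 turned to -0.105 under scaling by the median of all probes, with 0 called higher under either scaling. Of 24 genes of glycolysis and glucose uptake 5 fell and 1 rose. LDHA, which turns pyruvate to lactate, read 13.58, 13.53 and 13.43 at 0.1 µM, against 14.27, 13.99 and 14.02 at basal (-0.58 ± 0.10), and PGK1 (-0.48), LDHB (-0.40), PGAM1 (-0.37) and TPI1 (-0.37) fell with it, LDHB losing its call in 5 of the 6 fits without 1 of the compared arrays (adjusted p = 0.0553 to 0.124). The glucose transporter SLC2A1 (0.08) and the hexokinase HK2 (0.33) did not pass. Of 20 genes of sterol synthesis 5 fell, ACAT2, SQLE (-0.64), IDI1 (-0.61), CYP51A1 (-0.51) and INSIG1 (-0.40). TM7SF2, a sterol reductase of the same pathway, rose by 1.04 ± 0.11, at 10.24, 10.12 and 10.39 against 9.16, 9.17 and 9.29 at basal. HMGCS1 (-0.13) and LSS (-0.21) did not pass. The nucleolar, glycolysis and sterol lists kept their direction under the median scalings, with 22 and 19, 15 and 10, and 12 and 8 members lower. Of 17 genes of fatty acid synthesis 1 rose, THRSP, a share near the 5.93% of all genes, and 2 fell, ME1 (-0.54) and PLIN2 (-0.45). FASN (-0.10) and SCD (0.15) did not pass.

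**Figure D4:**
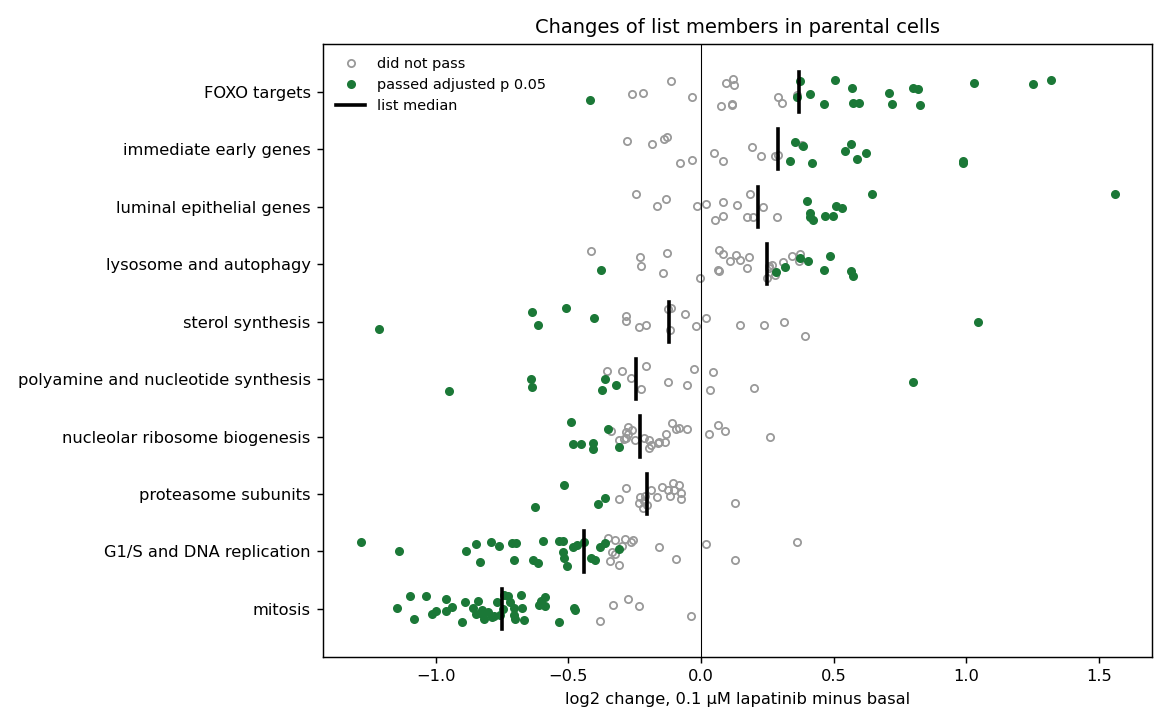
Log2 change at 0.1 µM minus basal (horizontal axis) of every tested member of 10 lists, 1 point a gene, filled where the gene passed adjusted p 0.05 and open where it did not, with a black bar at the list's median. The mitosis list lies below 0 throughout with a median of -0.75, and the FOXO list has its median at 0.37 with 16 filled points above 0 and 1 below.

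Calls among stress, inflammatory and housekeeping genes varied from list to list. Of 26 ATF4 targets and amino acid genes 6 fell, among them the serine synthesis enzyme PSAT1 (-0.59) and the factor CEBPB (-0.42), and 2 rose, NUPR1 and DDIT3, which encodes CHOP (0.37). The asparagine synthetase ASNS (0.29) and TRIB3 (-0.07) did not pass. Under the median scalings 1 and 2 of this list rose and 13 and 9 fell, and with no filter 2 rose and 3 fell. Of 19 ER chaperone and unfolded protein genes 3 rose and 2 fell, with HSPA5, the chaperone BiP, at 0.38, DNAJB9 at 0.51 and DNAJC3 at -0.36. In this list 0 and 1 rose and 8 and 6 fell under the median scalings. HSPA5, DNAJB9 and DDIT3 lost their calls under scaling by the median of all probes (adjusted p = 0.314 to 0.641). HSPA5 (adjusted p = 0.112) and DNAJB9 (adjusted p = 0.0637) lost them under scaling by the kept probes too and without replicate 1 of the 0.1 µM group, and DDIT3 in 5 of the 6 fits without 1 of the compared arrays. DNAJC3 lost its call with the replicate block (adjusted p = 0.0548), on the compared arrays alone (adjusted p = 0.0579) and without replicate 1 or 2 of the 0.1 µM group or replicate 1 or 3 of basal (adjusted p = 0.0751 to 0.223).

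Of 16 NF-kB cytokines and S100 genes 4 fell and 0 rose, with a median of -0.278. They were S100A7, at 8.19, 8.26 and 8.71 against 9.07, 9.09 and 9.16 at basal (-0.72), CXCL8 (-0.66), S100A8 (-0.62) and CCL20 (-0.49). The call of S100A8 was lost without replicate 2 of the 0.1 µM group (adjusted p = 0.0617), and that of CCL20 without its replicate 1 (adjusted p = 0.103) or basal replicate 3 (adjusted p = 0.0735). Of 23 proteasome subunits 4 fell and 0 rose, led by PSMD14 (-0.63), with a median of -0.20 and 22 and 12 lower under the median scalings. Metallothioneins were called in 0 of 6, with changes of -0.68 to 0.0046, while 4 and 1 were lower under the median scalings 2 on the compared arrays alone and 1 with the replicate block. Of 16 heat shock proteins 1 fell, HSPA4 (-0.43), a share near the 5.34% of all genes. That call was lost when its probes were averaged (adjusted p = 0.138) and in 5 of the 6 fits without 1 of the compared arrays, and 11 and 7 of the list were lower under the median scalings and 5 on the compared arrays alone.

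Of 28 interferon and antigen presentation genes 3 rose and 0 fell, IFI6 (0.88), IFITM2 (0.67) and TAPBP (0.50). IFITM2, of a family of near-identical members, lost its call under scaling by the median of all probes (adjusted p = 0.0889) and without replicate 3 of the 0.1 µM group or basal replicate 1. TAPBP rests on 1 of 3 probes, since the others gave -0.05 each, and lost its call with their mean (0.13, adjusted p = 0.448), under both median scalings, with the replicate block (adjusted p = 0.0583) and in 5 of the 6 fits without 1 of the compared arrays. The median of the list, 0.146, turned to -0.0468 under scaling by the median of all probes, with 1 rise. Of 13 BCL2 family genes 3 rose and 0 fell, the pro-apoptotic BIK (0.75) and BOK (0.38) and the anti-apoptotic MCL1 (0.42). BIK kept its call, but BOK (adjusted p = 0.687 and 0.2) and MCL1 (adjusted p = 0.589 and 0.0982) lost theirs under the median scalings and in 4 and 2 of the 6 fits without 1 of the compared arrays, and a second probe of MCL1 gave 0.11. The list's median of 0.124 turned to -0.0423 under scaling by the median of all probes, with 2 higher and 2 lower.

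Clustered histone genes rose in 5 of 15 and fell in 0, against 5.93% and 5.34% of all genes, led by H1-2 (0.85), with 1 and 3 higher under the median scalings. Probes of clustered histone genes can share signal with near-identical copies. Of 17 hypoxia-inducible genes 2 rose and 0 fell, with a median of -0.0325. They were HILPDA, a lipid droplet protein (1.13), and the carbonic anhydrase CA12 (0.68), while VEGFA (0.13) did not pass, and 6 and 2 of the list were lower under the median scalings.

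The dose comparison asks which of these changes differed at 1 µM. It uses the same 0.1 µM arrays, so its values are given beside those above and not as a separate check of them. Between 1 µM and 0.1 µM, 692 genes passed (5.52%), 388 higher (3.09%) and 304 lower (2.42%). Against basal, 1 µM gave 3507 calls (28%).

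Several rises grew with dose. CYP4B1 averaged 7.24 at basal, 9.12 at 0.1 µM and 10.43 at 1 µM, a difference of 1.32 ± 0.14 between doses (adjusted p = 1.5e-06). ABCA1, a cholesterol exporter, was higher at 1 µM than at 0.1 µM by 1.19, MUC1 by 1.08, SOCS2, an inhibitor of cytokine signalling, by 1.05, FBXO32 by 1.02 and BNIPL by 0.92. At 0.1 µM the call of SOCS2 (0.54) was lost under scaling by the median of all probes (0.27, adjusted p = 0.149). Averaging its probes also removed that call (0.31, adjusted p = 0.0582), as the dimmer probe gave 0.09. ABCA1 (0.52 at 0.1 µM) was not called without basal replicate 3 (0.39, adjusted p = 0.0808). It was above background on 2 of 3 basal arrays. BNIPL was at 0.71 at 0.1 µM, and its other probe gave 0.14. In the FOXO list 12 of 30 genes were higher and 1 lower at 1 µM than at 0.1 µM. In the mitosis list 13 of 44 were lower still at 1 µM, and CCNA2 differed by -0.13 (adjusted p = 0.54), CKAP2L by -0.21 and KPNA2 by -0.08 (adjusted p = 0.78). In the G1/S list 15 of 41 were lower still, such as POLE2 (-0.65) and RRM2 (-0.52).

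A group of genes was highest at 0.1 µM. EGR1 read 9.61, 9.58 and 9.46 at basal, 10.49, 10.68 and 10.43 at 0.1 µM, and 8.49, 8.34 and 8.41 at 1 µM. Its 3 groups did not overlap, and 1 µM lay 2.12 ± 0.14 below 0.1 µM (adjusted p = 3.2e-10) and 1.13 below basal (adjusted p = 6.9e-07). FOS read 6.71, 6.77 and 6.65 at 1 µM, 1.14 below 0.1 µM (adjusted p = 2e-05), with -0.15 against basal (adjusted p = 0.5). DUSP1 read 10.76, 10.64 and 10.27 at 1 µM, 1.22 below 0.1 µM (adjusted p = 5.8e-08) and 0.11 from basal (adjusted p = 0.54). KLF2, a zinc finger factor, was called at 0.33 at 0.1 µM and lay 1.23 lower at 1 µM. Its call at 0.1 µM was lost under both median scalings (0.01 and 0.17). It was also lost without replicate 1 or 2 of the 0.1 µM group or replicate 2 or 3 of basal (adjusted p = 0.0678 to 0.139). In the immediate early list 1 gene, KLF4, was higher and 6 were lower at 1 µM than at 0.1 µM. SPRY4, with the reservation on its probes, fell at each step, by 0.86 on the log2 scale at 0.1 µM and by a further 1.31 at 1 µM, and CKLF by 0.53 and a further 0.90. The call of CKLF at 0.1 µM was lost in 5 of the 6 fits without 1 of the compared arrays (adjusted p = 0.0717 to 0.16).

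**Figure D5:**
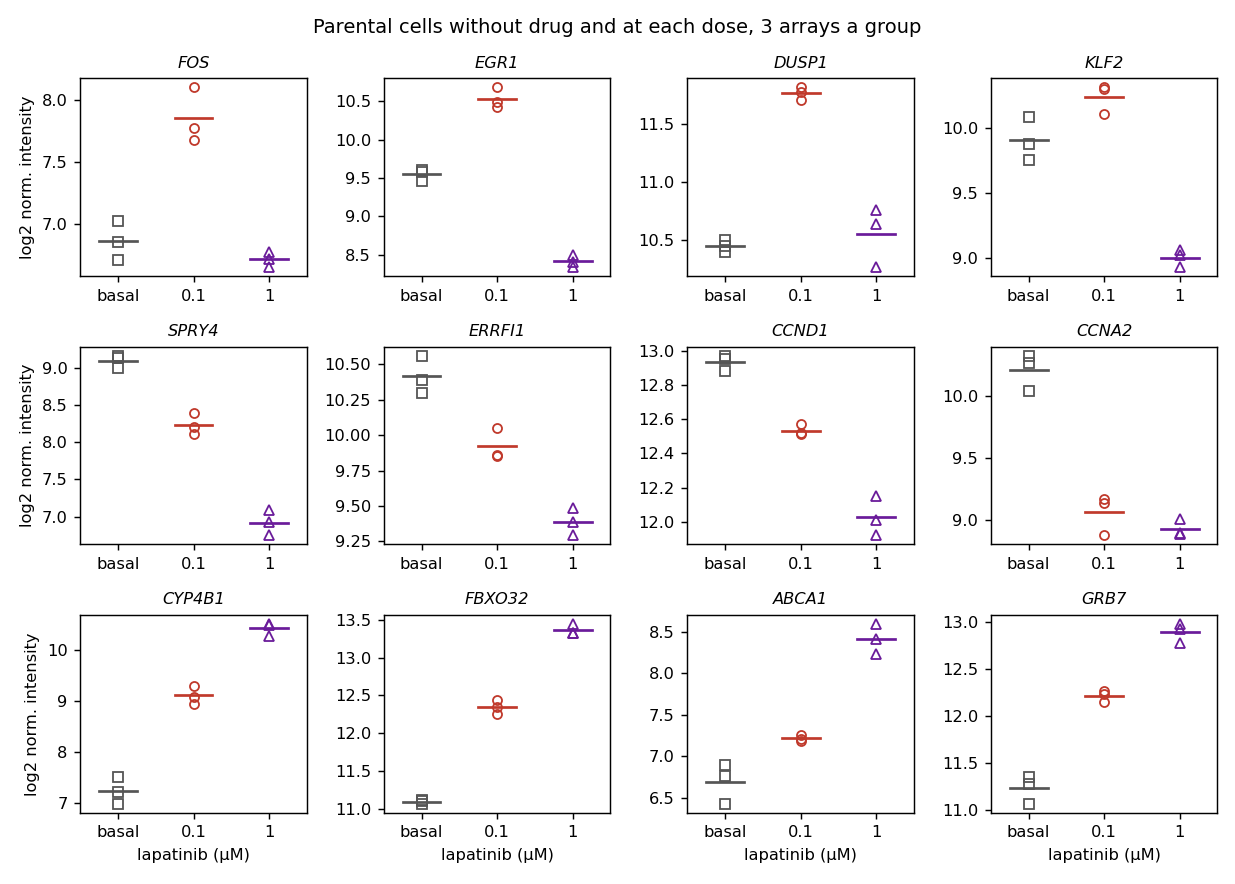
Log2 normalized intensity (vertical axes, each with its own range) of 12 genes in parental cells at basal, 0.1 µM and 1 µM lapatinib, 3 arrays a group with a bar at each mean. FOS, EGR1, DUSP1 and KLF2 are highest at 0.1 µM, SPRY4, ERRFI1 and CCND1 fall at both steps, CCNA2 differs by -0.13 between doses, and CYP4B1, FBXO32, ABCA1 and GRB7 rise at both.

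Set against the resistant line, the low-dose response of the parental cells differed by test in 1 gene of 12547 (0.00797%), while 1061 genes were at an unadjusted p under 0.05. That gene was LRRC31. It read 8.18, 8.29 and 8.30 in the 0.1 µM arrays of parental cells, against 7.29, 7.07 and 7.01 in their basal arrays (1.13 ± 0.12, adjusted p = 1.99e-07), and changed by 0.11 in the resistant line (adjusted p = 0.66). In the resistant line it was dim, at 6.95, 6.89 and 7.03 at 0.1 µM, against 6.76, 6.81 and 6.96 at basal. In the resistant line itself 918 genes passed at 0.1 µM against basal (7.32%), 504 higher (4.02%) and 414 lower (3.3%). FOS (0.99 in parental and 1.02 in resistant cells), DUSP1 (1.32 and 1.32), CYP4B1 (1.87 and 2.08) and MUC1 (1.56 and 1.42) are set side by side here, with differences (resistant minus parental) of 0.03 ± 0.20, 0.0022 ± 0.16, 0.21 ± 0.20 and -0.14 ± 0.19 (SE). RRM2 was at -1.28 in parental and -0.49 in resistant cells, and KPNA2 at -1.05 and -0.28, differences of 0.79 and 0.77 that did not pass over all genes. In the G1/S list 26 of 41 genes fell in parental and 7 in resistant cells, and in the mitosis list 39 and 37 of 44 fell in parental and in resistant cells. A difference between these counts was not tested, and no member of either list passed the test of the difference between lines. In simulated data, with 50 genes changed at each of 1.5-, 2-, 3- and 4-fold, the test of that difference found 78% of 2-fold and 30% of 1.5-fold changes. With 1 call in the data the adjusted threshold was stricter than in that simulation, so these shares can overstate what was detectable. Differences of 1.5-fold were mostly not detectable with 3 arrays a group.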

How the data were processed

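Total RNA was turned into cRNA with biotin and hybridized to Illumina bead arrays, per the labels' protocols, and BeadStudio read out the signals, per the submitters' processing notes. The authors' non-normalized table gives a linear intensity for each of 48803 probes (the labels state 48697), without detection p-values or negative controls. The authors' normalized table, an intensity with the same median (84.7) and mean (491.699) on all 18 arrays, was used as an alternative.

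From the non-normalized table, intensities were background-corrected (normexp, offset 50), quantile-normalized over 18 arrays and put on the log2 scale with limma 3.58.1 in R 4.3.3. As detection p-values were lacking, each array's background was centred on the mode of its log2 signals, with its SD taken from the values below that mode, and a probe was above background where a normal background of that mode and SD would lie higher with a probability of only 0.05. The 22706 probes that met this on 3 or more arrays were kept, of which 16772 had 1 gene symbol in the platform annotation, and 28059 probes matched a RefSeq gene identifier of GRCh38.p14. The brightest probe stood for each of the 3273 genes with several. A model with 1 mean per group over 18 arrays (lmFit, eBayes with an intensity trend) gave two-sided p-values, which were adjusted over 12547 genes by the Benjamini-Hochberg method and called under 0.05.

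Groups came from the labels. Replicate numbers did not pair the samples (same-numbered deviations correlated at 0.078, -0.0099 and 0.041). The members, gene lists and naming rule were chosen with earlier results of these data known. The rule named the 12 largest rises and falls with arrays apart, up to 4 called members a list, a panel, the 6 largest dose differences each way, and genes called between lines. Other members of lists were named after their values were seen. In all, 24 called genes lay below background on all arrays of a group, and none of them is named. The fit was tested on simulated data for 12547 genes, where for 0.1 µM against basal it found 68% of changes of 1.5-fold, 100% of 2-fold, 98% of 3-fold and 100% of 4-fold, with 13 calls among unchanged genes. Promoters are from the RefSeq table of 27305 genes, and a gene counted as holding a motif if any of its starts did. Alternatives were other background, scaling, filter and probe choices, fewer arrays and a replicate block. The number of arrays limits the precision.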

Additional observations from a re-analysis of the deposited data

Results flagged for a closer look

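LRRC31, a protein with leucine-rich repeats, was flagged because its responses to 0.1 µM lapatinib differed between the lines by test. In parental cells it read 8.18, 8.29 and 8.30 at 0.1 µM, against 7.29, 7.07 and 7.01 at basal, while its change in the resistant line, where it was dim, was 0.11. The difference, resistant minus parental, was -1.02 ± 0.17 (SE, limma adjusted p = 0.022), and 3 of 3 treated parental arrays lay above all basal ones. The call was lost in a fit to the compared arrays alone (adjusted p = 0.0612) and without parental basal replicate 2 or 3, resistant 0.1 µM replicate 1 or 2, or resistant basal replicate 2 or 3 (adjusted p = 0.0528 to 0.15), with the difference at -0.95 to -1.03. What sets the lines apart at this gene was not tested.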

How the results depend on the processing

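Of the 122 named genes with a value at 0.1 µM, 108 passed and 62 passed under every alternative run. No direction was reversed where a gene passed in the main fit or in the alternative. Changes of sign in genes that passed in neither were not counted. Called genes numbered 1257 to 1529 with the authors' values (1417), without background correction, with a smaller offset, with no or a stricter filter and with probe means, and 1409 of the 1417 genes called from the authors' values were among the 1414. Taking single probes gave 1807 and the compared arrays alone 1865. Without 1 of the compared arrays the count was 987 to 1105, with 949 to 1019 of those genes among the 1414. Median scaling over all probes gave 3646 calls (241 higher, 3405 lower), with 10 and 100 at least 2-fold higher and lower, and over the kept probes 2278 (702 and 1576, with 39 at least 2-fold lower). An offset of 16 gave 50 and 27 genes at least 2-fold higher and lower, against 29 and 14, and probe means gave 9 lower. The replicate block, whose numbers did not pair the samples, gave 1350 calls (725 higher and 625 lower), and moved over 1.5 times the falls of 3 lists, ER chaperones (1, against 2), lysosome and autophagy (0, against 1) and metallothioneins (1, against 0). For 1 µM against 0.1 µM, median scaling over all probes gave 379 calls (227 higher, 152 lower) and the compared arrays alone 1199 (594 and 605). Leaving out 1 array gave 312 to 451 calls, 184 to 256 higher and 121 to 195 lower, against 692, 388 and 304. For the difference between lines, calls numbered 5 (4 higher) with median scaling over all probes, which moved the median of all genes by 0.10, and 2 (1 higher) over the kept probes and with probe means. They numbered 0 on the compared arrays alone, where 0 were lower, and 0 to 3 without 1 array, with 0 to 2 higher and 0 to 2 lower. Apart from the arrays left out, the causes were not tested. Genes near background, with few arrays above it, are limited by their dim signal.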

Other observations

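Of 15 NRF2 targets, genes of the oxidative stress response, 3 fell at 0.1 µM, the transporter ABCC3 (-0.67), the glutathione synthesis subunit GCLM (-0.61) and ME1 (-0.54), and FTL, the ferritin light chain, was called higher (0.38), but not under either median scaling (adjusted p = 0.519 and 0.0743) nor without replicate 3 of the 0.1 µM group (adjusted p = 0.0605). Under those scalings 10 and 6 of the list were lower and 0 higher. ABCC3 read 8.20, 8.40 and 8.28 at 0.1 µM, against 8.91, 9.04 and 8.95 at basal, with no overlap. GCLM rests on its brighter probe, since the other gave 0.20, and its call was lost with their mean (adjusted p = 0.25). NQO1 (0.06), HMOX1 (0.02) and TXNRD1 (-0.04) did not pass. Of 26 subunits of oxidative phosphorylation 1 was called, SDHA (0.37), against 5.93% of all genes that rose. That call was lost under both median scalings (adjusted p = 0.839 and 0.198) and in 5 of the 6 fits without 1 of the compared arrays, and the list's median of 0.0041 turned to -0.187 and -0.0242 under the scalings. Among genes that touch drug transport and bypass receptors, MET was at 0.02 (adjusted p = 0.962) with overlapping arrays, and ABCB1 was near background in both groups.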
